A study of Mus musculus with 2 samples.

Results

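The 9 genes described here serve the making of haemoglobin and the life of the red cell: the adult globin genes Hba-a1, Hba-a2, Hbb-bs and Hbb-bt, and the erythroid genes Alas2, Klf1, Slc4a1, Car1 and Car2. They were chosen by symbol among the 33696 genes of the count tables, and all 9 were found. They were followed as raw counts of unique molecular identifiers (UMIs) over every deposited barcode of both libraries, also the barcodes with under 200 genes that most single-cell analyses discard. The study compared the dura mater, the outermost membrane around the brain, of female mice after sham surgery (sham) with that of female mice whose jugular veins had been ligated 14 days before (JVL-14). Mice were perfused with saline, the dura was peeled from the skullcap, digested with collagenase D and DNase and pooled from pairs of meninges, and viable singlets were sorted and run on the 10x Genomics 3′ platform. Each group is 1 library, the number of mice behind it and the time since sham surgery are not given in the sources used here, nor are strain and age. No difference below therefore has a replicate check or a p-value. Brackets after a value give exact 95% intervals, which cover counting error only and treat each UMI as independent, and ratios are JVL-14 over sham.

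Adult mouse haemoglobin is a tetramer of alpha chains, from Hba-a1 and Hba-a2, and beta chains, from Hbb-bs and Hbb-bt. Erythroid precursors in the bone marrow make it under transcription factors such as GATA1 and KLF1, and ALAS2 starts haem synthesis in their mitochondria. The precursor then expels its nucleus, and the young red cell (reticulocyte) loses its remaining RNA over the following days. The skull holds marrow next to the dura, and blood stays in vessels that perfusion does not clear, so a dural preparation can hold marrow precursors as well as circulating red cells.

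The 120 bases upstream of the start of transcription are shown for the beta genes, because the results below turn on the proportion between them, and for 1 alpha gene and Alas2. They come from RefSeq promoters of build GRCm38.p6, which held 6 of the 9 genes (Hba-a1, Hba-a2, Hbb-bs, Hbb-bt, Alas2 and Klf1), each printed 5′ to 3′ on the gene's strand. The beta genes lie on chromosome 7, minus strand, at chr7:103827929-103828048 and chr7:103813924-103814043. Hba-a1 lies at chr11:32283552-32283671 and Alas2 at chrX:150547297-150547416, both on the plus strand. Capitals mark matches on either strand to 5 motifs. The motif CCACACCC is a form that KLF1 is known to bind. The motif AGATAA is a form that GATA1 is known to bind. The motif CCAAT is a general promoter element. The motif ATATAA resembles the box that positions the start of transcription. The motif TATAAA is its common form, and both can overlap.
Hbb-bs: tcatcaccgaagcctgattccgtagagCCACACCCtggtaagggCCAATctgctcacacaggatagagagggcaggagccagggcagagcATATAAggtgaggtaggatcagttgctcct
Hbb-bt: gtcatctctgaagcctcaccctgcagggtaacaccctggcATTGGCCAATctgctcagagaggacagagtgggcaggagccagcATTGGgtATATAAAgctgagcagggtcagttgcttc
Hba-a1: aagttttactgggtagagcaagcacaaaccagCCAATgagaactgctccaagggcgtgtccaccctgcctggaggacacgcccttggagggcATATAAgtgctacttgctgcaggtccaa
Alas2: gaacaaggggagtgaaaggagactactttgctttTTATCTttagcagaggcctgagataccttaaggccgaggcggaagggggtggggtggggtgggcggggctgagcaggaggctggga
Hbb-bs held a CCACACCC match 93 to 86 bases upstream, and Hbb-bt held none in the 250 bases of its entry. That motif occurred in this window of 1.84% of 32851 promoters, AGATAA in 4.36%, CCAAT in 21.3%, ATATAA in 4.47% and TATAAA in 6.34%. The beta windows were identical at 88 of 119 aligned bases, and the Hba-a1 and Hba-a2 windows at 117 of 117. The alpha transcripts differ at 1 of 538 aligned bases and the beta transcripts at 27 of 580 in GENCODE vM21, so the split of alpha reads between Hba-a1 and Hba-a2 is uncertain. A match is a description of these letters and not a measured binding site.

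There were 5495 barcodes with 33996641 UMIs in sham and 3004 with 18796260 in JVL-14, none under 500 UMIs. Of the 266 sham and 244 JVL-14 barcodes with under 200 genes, 256 and 242 drew at least 50% of their UMIs from haemoglobin, and the other 10 and 2 were 56.9% to 98.1% mitochondrial. After filters on genes, mitochondrial UMIs and doublets, 4672 and 2471 cells remained in 35 clusters, built without the 9 genes. Only 2 barcode sequences occurred in both libraries. Cells that resemble a class by its markers are called by that class name, and 27.8% of sham and 23.4% of JVL-14 cells lie in clusters left without a name. The libraries also differ in tissue: sham held 80 choroid plexus, 52 pineal and 249 skeletal muscle cells, and JVL-14 held 0, 0 and 3.

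Haemoglobin made up 8.82% of all sham UMIs (2998695) and 15% of JVL-14 UMIs (2820062), a ratio of 1.70. The 4 globin genes differed by similar factors. Hbb-bs, the main adult beta gene, stood at 45357 counts per 1000000 UMIs of the library (CPM) in sham, and at 77403 CPM in the ligated group it was 1.71-fold higher (1.70 to 1.71). Hba-a1 stood at 18793 and 32880 CPM, a ratio of 1.75 (1.74 to 1.76). Hba-a2 stood at 14366 and 23983 CPM (1.67) and Hbb-bt, the minor adult beta gene, at 9690 and 15766 CPM (1.63). All 4 were thus higher in the JVL-14 library, by 1.63 to 1.75 times.

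The erythroid genes differed far more among themselves. Alas2, the erythroid form of the rate-limiting enzyme of haem synthesis, had 4032 sham and 3990 JVL-14 UMIs, or 119 and 212 CPM, and its ratio of 1.79 (1.71 to 1.87) lay close to those of the globins. Klf1, the erythroid Krüppel-like factor, had 53 and 252 UMIs, or 1.56 and 13.4 CPM, a ratio of 8.60 (6.37 to 11.8). Slc4a1, the anion exchanger band 3 of the red cell membrane, had 382 and 850 UMIs, or 11.2 and 45.2 CPM, 4.02-fold higher (3.56 to 4.55). Car2, the cytosolic carbonic anhydrase II, had 3051 and 8286 UMIs, or 89.7 and 441 CPM, 4.91-fold higher (4.71 to 5.12). Car1, carbonic anhydrase I, went the other way, with 1045 sham and 383 JVL-14 UMIs, or 30.7 and 20.4 CPM, and a ratio of 0.663 (0.588 to 0.746). Of the 9 genes, 3 (Klf1, Slc4a1 and Car2) were at least 2-fold higher in JVL-14, where 5.11% of the 17811 genes with at least 20 UMIs were, and none was at least 2-fold lower, where 5.0% were. Fewer cells of a type and less RNA per cell cannot be told apart in such totals.

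**Figure D1:**
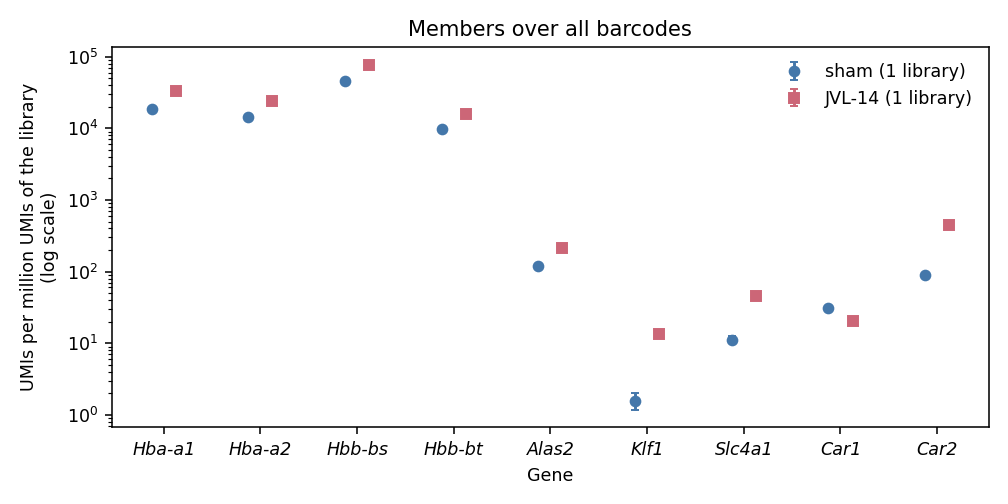
Level of the 9 genes over all barcodes, in CPM of the library on a log axis, for the 1 sham (circles) and the 1 JVL-14 library (squares), with exact 95% counting intervals, mostly smaller than the symbols. The JVL-14 symbol lies above the sham symbol for 8 of 9 genes, furthest for Klf1 (8.60-fold), and below it for Car1 (0.663).

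Few barcodes carried these totals. In sham, 350 of 5495 barcodes (6.37%, 5.74% to 7.05%) drew at least 50% of their UMIs from haemoglobin, while 337 of 3004 did after ligation (11.2%, 10.1% to 12.4%), 1.76 times the share (1.51 to 2.05). They held 97.7% and 97.3% of all haemoglobin UMIs. Their median haemoglobin share was 97.0% in sham and 97.3% in JVL-14, with medians of 118 and 101 genes. Few barcodes lay in between: 11 sham and 9 JVL-14 barcodes had a share of 25% to 50%. At 80% or more the ratio was 1.70 (1.45 to 2.001), so the relative excess in JVL-14 changed little with the limit.

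Most of these barcodes had under 200 genes or lay in 1 of the 2 erythroid clusters, while 21 sham and 4 JVL-14 barcodes were removed as doublets and 12 and 2 lay in other clusters. Haemoglobin-dominated barcodes under 200 genes, which a standard gene filter discards, carried 62.6% of all sham and 60.8% of all JVL-14 haemoglobin UMIs. A first erythroid cluster, led by Bpgm, which makes the red cell regulator of oxygen release, held 53 cells in sham (median 246 genes) and 27 in JVL-14 (258 genes). A second, led by the blood-group gene Rhd and by Hemgn, a nuclear protein of erythroid precursors, held 12 cells in sham (median 524.5 genes) and 76 in JVL-14 (1014 genes). The Bpgm cluster carried 23.2% and 12.8% of the haemoglobin UMIs and the Rhd-Hemgn cluster 3.02% and 23.7%. The plot of haemoglobin share against genes shows one arc in each library, from red cells with few genes to precursors with many more.

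**Figure D2:**
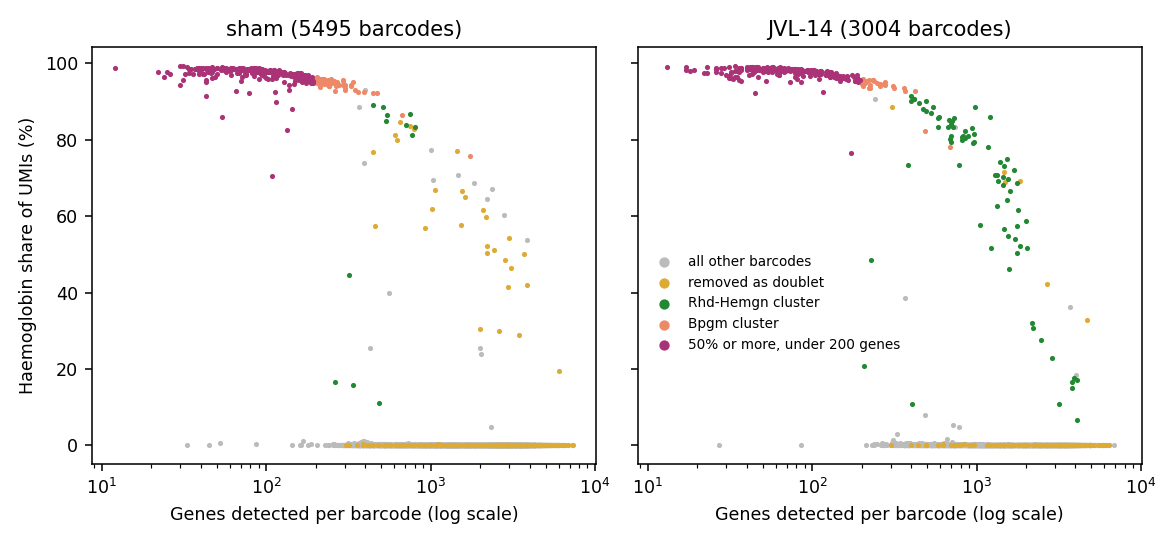
Each point is a barcode, with genes detected (log axis) against the share of its UMIs from the 4 haemoglobin genes (%), in sham (left, 5495 barcodes) and JVL-14 (right, 3004), coloured by barcode group. Haemoglobin-dominated barcodes under 200 genes sit near 97%, and the middle of the arc is made of Rhd-Hemgn cells in JVL-14 and largely of barcodes removed as doublets in sham.

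The share of Bpgm cells among retained cells was 1.13% in sham and 1.09% after ligation, 0.963 times as large (0.583 to 1.56). These cells lie close above the filter of 200 genes, with medians of 246 genes in sham and 258 in JVL-14. Haemoglobin-dominated barcodes below the filter, 256 of 5495 in sham and 242 of 3004 in JVL-14, are not in this share. The level share thus holds for cells above that filter only, and the part of the filter in it was not tested. The share of Rhd-Hemgn cells was 0.257% (0.133% to 0.448%) in sham and 3.08% (2.43% to 3.83%) in JVL-14, 11.98 times as large (6.47 to 24.2). The doublet step bears directly on that value. Without it, the Rhd-Hemgn cluster held 29 sham and 77 JVL-14 barcodes, a ratio of 5.04 (3.25 to 8.02), so the step removed 17 of 29 barcodes in sham and 1 of 77 in JVL-14. Of those 17 sham barcodes, 16 had at least 20 UMIs of the erythroid marker list, and 2 had at least 20 UMIs of the marker list of some other class. The erythroid list also served to name the cluster, and a doublet of erythroid cells would show no other class. These counts therefore cannot decide whether the barcodes were doublets. Counted with no cluster and no doublet call, 22 sham barcodes (0.400%) and 64 JVL-14 barcodes (2.13%) had 1 or more Klf1 UMIs. That is a ratio of 5.32 (3.23 to 9.07). At 3 or more Klf1 UMIs there were 7 sham barcodes (0.127%) and 32 JVL-14 barcodes (1.07%), a ratio of 8.36 (3.63 to 22.4).

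The doublet calls also decided where 3 of the genes were seen in sham. Barcodes removed as doublets held 46 of 53 Klf1 UMIs, 234 of 382 Slc4a1 UMIs and 1031 of 1045 Car1 UMIs there. In JVL-14 they held 15 of 252, 15 of 850 and 76 of 383. With those barcodes left out, Car1 no longer stood higher in sham: its ratio turned to 38.9.

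Within erythroid cells the 5 non-globin genes differed in where along the haemoglobin share they were high. For this comparison both erythroid clusters without the doublet step and the haemoglobin-dominated barcodes under 200 genes were sorted by haemoglobin share, and CPM here is per UMIs other than haemoglobin. On this scale Alas2 rose from bin to bin in both libraries. In JVL-14 it stood at 437 CPM (339 to 556) under 25% haemoglobin, 1089 at 25% to 50%, 3375 at 50% to 80%, 12128 at 80% to 95% and 52530 (50452 to 54673) at 95% or more. Sham gave 861, 1146, 3209, 15581 and 44424 CPM in the same bins. The non-haemoglobin total shrinks as the haemoglobin share rises, so a gene that is level per all UMIs also climbs on this scale. Per all UMIs, Alas2 stood at 1085 CPM in the JVL-14 Rhd-Hemgn cluster as retained. It stood at 1260 CPM in the Bpgm cluster and 1293 CPM in the barcodes under 200 genes. The sham values were 1186, 1324 and 1251 CPM. Alas2 was also the most abundant non-globin, non-mitochondrial gene of the barcodes under 200 genes in both libraries, with 9.42 and 9.38 UMIs per barcode.

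Klf1 ran to 0 at the haemoglobin-rich end. It reached 826 CPM (681 to 992) in JVL-14 and 435 CPM (279 to 647) in sham at 50% to 80% haemoglobin, and fell to 184 and 41.2 CPM at 80% to 95%. At 95% or more no Klf1 UMI was seen in 266 sham or 246 JVL-14 barcodes. In the barcodes under 200 genes a count of 0 allows up to 59.7 CPM (sham) and 72.2 CPM (JVL-14). Slc4a1 stood at 4303 CPM (2063 to 7913) in the 3 sham and 894 CPM (751 to 1057) in the 9 JVL-14 barcodes under 25%, and at 2675 and 1089 CPM at 25% to 50%. It stood between 2897 and 3338 CPM at 50% to 95% haemoglobin in both libraries and at 521 (359 to 732) and 415 CPM (250 to 648) at 95% or more.

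Both carbonic anhydrases took other positions. Per non-haemoglobin UMI, Car2 was highest at 80% to 95% haemoglobin, with 12329 CPM (11361 to 13357) in sham and 18777 CPM (17816 to 19777) in JVL-14. It still stood at 2701 and 4106 CPM at 95% or more. Per all UMIs it was higher in the Rhd-Hemgn cluster as retained (2281 CPM in sham, 3967 in JVL-14) than in the Bpgm cluster (406 and 807). In the JVL-14 barcodes under 200 genes it stood at 80.8 CPM per all UMIs. Car1 was an early gene in JVL-14, with 1358 CPM (1180 to 1556) under 25% haemoglobin, 1185 at 25% to 50%, 130 at 50% to 80%, 78.8 at 80% to 95% and 0 above. In sham 16 Car1 UMIs at 50% to 80% haemoglobin, in 2 barcodes, and 1 at 95% or more were all that the series of bins held. The early sham bins are thin: 3 barcodes with a median of 890 UMIs lay under 25%, against 9 in JVL-14 with a median of 23166. Values of the early bins are given for each library, and no difference between libraries is read from them.

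**Figure D3:**
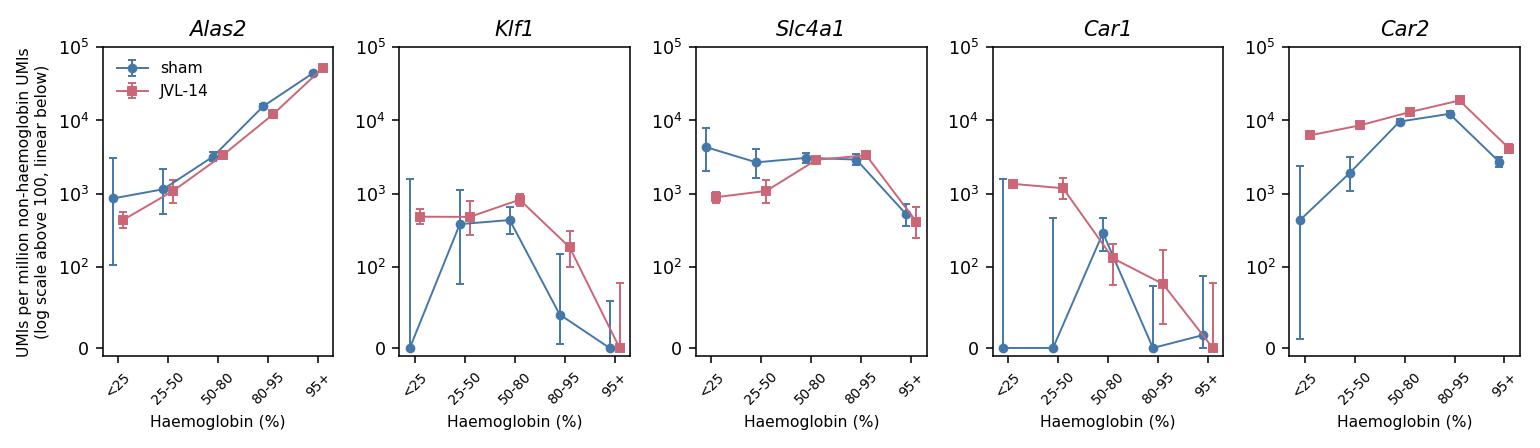
Alas2, Klf1, Slc4a1, Car1 and Car2 in erythroid barcodes sorted by haemoglobin share, in CPM of non-haemoglobin UMIs (log axis above 100, linear below), with exact 95% counting intervals, for sham (circles) and JVL-14 (squares). On this scale Alas2 climbs to 44424 and 52530 CPM in the last bin, where Klf1 is at 0 in both libraries. Car2 peaks at 80% to 95%. The denominator shrinks as the haemoglobin share rises.

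Level differences between libraries inside erythroid cells depended on which cells were counted. Over both clusters as retained, the ratio per all UMIs was 0.724 to 0.816 for the 4 globins, 0.867 for Alas2, 3.99 for Slc4a1 and 4.83 for Car2. Klf1 had 1 sham UMI against 210 (ratio 125, 22.1 to 4951) and Car1 1 against 268 (159). Over both clusters, 88.9% of the 2646 genes measured were at least 2-fold higher in JVL-14 and 0.794% at least 2-fold lower, and the 4 erythroid genes past 2-fold are read against that share. With haemoglobin left out of the total, which moved the median log2 ratio of all genes there from 3.12 to 1.15, the shares were 54.0% and 10.7%, and the split of the 9 genes turned from 4 higher and none lower to 2 higher and 5 lower. Slc4a1 (1.02) and Car2 (1.24) no longer passed 2-fold, and Alas2 (0.222, 0.206 to 0.24) and the 4 globins (0.185 to 0.209) were at least 2-fold lower. In the Rhd-Hemgn cluster without the doublet step, and per non-haemoglobin UMI, 19.2% of 2840 genes were at least 2-fold higher and 11.5% lower. There, Car2 was level at 10751 and 11035 CPM (1.03, 0.955 to 1.10), Alas2 stood at 4341 and 3004 CPM (0.692, 0.615 to 0.781) and Slc4a1 at 3536 and 2079 CPM (0.588, 0.514 to 0.674). Klf1 stood at 331 and 572 CPM (1.73, 1.16 to 2.66), and Car1, with 16 sham UMIs in 2 barcodes and 268 JVL-14 UMIs in 20, at 189 and 706 CPM (3.73, 2.26 to 6.62). Median haemoglobin shares of these cells were 76.9% in sham and 73.4% in JVL-14.

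The proportions of the globin chains were similar between libraries. Alpha genes gave 37.6% of the haemoglobin UMIs of sham and 37.9% of those of JVL-14. Over the 723 barcodes with at least 100 haemoglobin UMIs the alpha share had a median of 37.9%, with the 5th and 95th percentiles at 30.8% and 48.3%. A sham barcode at the lower extreme held 588 haemoglobin UMIs and none of Hba-a1 or Hba-a2, and another at the upper extreme drew 87.1% of 1175 from them; both were singled out after their values were seen. Hba-a2 gave 43.3% and 42.2% of alpha UMIs. In the JVL-14 Rhd-Hemgn cluster it gave 39.3% (39.2% to 39.5%) of pooled alpha UMIs. The 12 sham cells gave 44.6% (44.1% to 45.1%), and the 29 sham barcodes without the doublet step 41.8% (41.4% to 42.1%). Single cells spread far wider than these intervals. Over 73 JVL-14 cells with at least 100 alpha UMIs the share ran from 18.0% to 47.4%, and over 9 such sham cells from 41.7% to 49.0%. The split of alpha reads is uncertain, and no difference between libraries is read from these shares.

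The share of Hbb-bt among beta UMIs was lower in haemoglobin-dominated barcodes with fewer genes, in both libraries. In haemoglobin-dominated barcodes with 500 genes or more, Hbb-bt made up 21.2% of beta UMIs (21.0% to 21.4%) in sham and 20.6% (20.5% to 20.8%) in JVL-14. At 200 to 499 genes it made up 20.7% and 20.6%. At 100 to 199 genes it made up 18.8% and 18.5%, at 50 to 99 genes 12.7% in each, and under 50 genes 4.10% (3.96% to 4.25%) in sham and 4.38% (4.27% to 4.50%) in JVL-14. Erythroid barcodes with under 25% haemoglobin stood at 28.9% (28.2% to 29.6%) in 9 JVL-14 barcodes and 13.7% (9.47% to 18.8%) in 3 sham barcodes. The sham value is thin, with a median of 890 UMIs per barcode. Across barcodes under 200 genes the share of Hbb-bt rose with the number of genes, with Spearman's rho 0.701 over 256 sham and 0.794 over 242 JVL-14 barcodes. These points share a library, and genes detected move with depth. The alpha share ranged from 36.6% to 40.8% over the same bins, and its rho with genes detected was -0.132 in sham and -0.411 in JVL-14.

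The barcodes under 200 genes were also split at an Hbb-bt share of 10% of beta UMIs. In 92 of 256 sham (35.9%) and 105 of 242 JVL-14 barcodes (43.4%) Hbb-bt was under 10% of beta UMIs, with medians of 3.54% and 3.39%, while the others had medians of 18.2% and 17.1%. The 10% limit was set after the shares were seen. Barcodes below it had medians of 53.5 and 44 genes and 3815 and 3939 UMIs, against 115 and 103 genes and 9833.5 and 10161 UMIs above it. Barcodes below the limit held 9.18 Alas2 UMIs (8.22 to 10.2) per 10000 haemoglobin UMIs in sham and 8.43 (7.59 to 9.35) after ligation. Those above it held 13.7 (13.1 to 14.3) and 14.8 (14.2 to 15.5). Car2 had 1 and 6 UMIs below the limit and 109 and 136 above it, and Slc4a1 0 and 0 against 21 and 18. These are counts without a denominator, from fewer barcodes with fewer UMIs below the limit. The 0 counts of Slc4a1 there are near the floor. Low-Hbb-bt barcodes were thus those with fewer genes, fewer UMIs and less Alas2, in each library, and the part of depth in this was not tested.

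**Figure D4:**
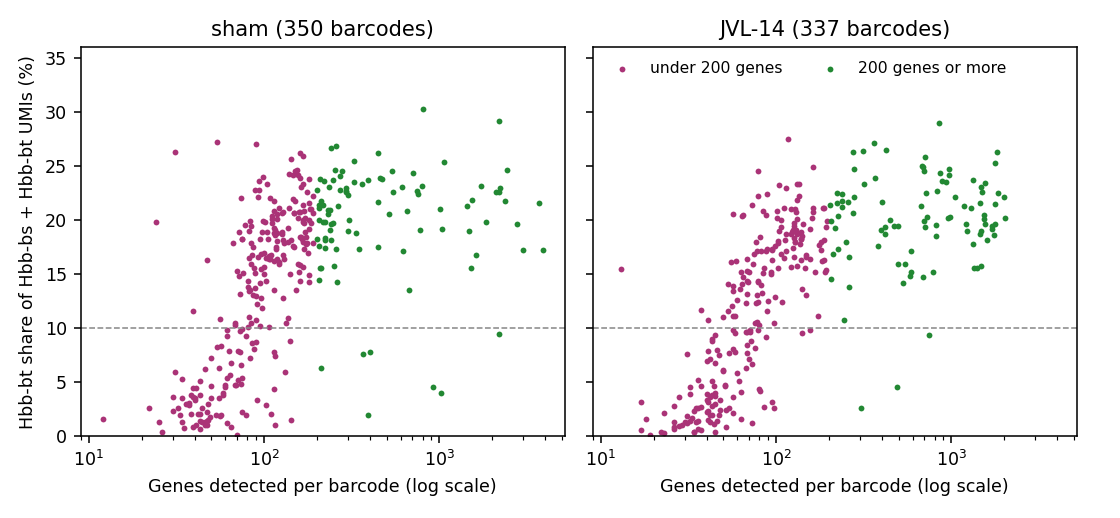
Share of Hbb-bt among Hbb-bs and Hbb-bt UMIs (%) against genes detected (log axis) for each haemoglobin-dominated barcode, in sham (350 barcodes, left) and JVL-14 (337, right); the dashed line marks 10%. Barcodes with 200 genes or more cluster near 21%, and those under 50 genes fall to 4.10% and 4.38% of pooled beta UMIs.

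Among the 10 most abundant genes of the barcodes under 200 genes, outside haemoglobin and mitochondria, were Alas2, Ftl1, Bpgm, Mkrn1, Oaz1, Ubb, Gpx1 and Ube2l6 in both libraries. Tpt1 was the tenth in sham and Sec61g the tenth in JVL-14. Ftl1 (ferritin light chain) held 4.54% and 4.80% of the remaining UMIs and Bpgm 3.80% and 4.27%. Per non-haemoglobin UMI, 1.57% of the 382 genes measured were at least 2-fold higher in JVL-14 and 6.54% lower. Ube2l6, a ubiquitin-conjugating enzyme of late erythroid cells, had a ratio of 1.0 (0.914 to 1.09), Alas2 1.14 (1.07 to 1.21) and Car2 1.56 (1.21 to 2.02).

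Genes that work beside the 9 were followed over all barcodes in lists, to be read against the 5.11% of all genes at least 2-fold higher. Among 19 genes of the red cell membrane and skeleton, 10 were at least 2-fold higher in JVL-14 and none lower, with Rhd at 8.16-fold, Kel at 5.81-fold and Epb42 at 4.69-fold. Of 9 haem synthesis genes, 2 were past 2-fold, Cpox (3.2) among them, and all 9 past 1.5-fold, where 11.8% of genes were. Of 15 erythroid transcription factors, 5 were past 2-fold (Gfi1b 5.84, Gata1 5.19, Tal1 4.07, Myb 3.19 and E2f2 2.43). Of 16 measured late maturation genes 3 were, and of 9 early progenitor genes 4 were, among them Ctse at 5.40-fold. The receptor Epor, through which erythropoietin acts, had 85 sham and 98 JVL-14 UMIs, a ratio of 2.09. Of 13 cell cycle genes, 3 were past 2-fold, Rrm2 (2.71), Birc5 (2.08) and Ube2c (2.03), and 11 past 1.5-fold. With haemoglobin out of the total, which moved the median log2 ratio of all genes from -0.03 to 0.07, 6.2% of all genes were at least 2-fold higher and 4.32% lower. On that scale 7 of 13 cell cycle genes, 4 of 9 haem synthesis genes, 6 of 15 transcription factors and 10 of 19 membrane genes passed 2-fold. On the first scale the median log2 ratio was 1.26 for the membrane list, 0.74 for haem synthesis, 0.66 for the transcription factors and 0.91 for the cell cycle, against -0.03 for all genes. Of 7 iron uptake genes 1 was past 2-fold, the transferrin receptor Tfrc (2.24), of 7 antioxidant enzymes none, and of 4 measured platelet genes 1, Gp9, with 10 and 39 UMIs. Several of these genes, Rhd and Gata1 among them, also served to name the erythroid clusters.

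Of 12 measured other carbonic anhydrases, 6 were at least 2-fold lower in JVL-14, where 5.0% of all genes were, and none higher. They were Car3, Car4, Car8, Car10, Car12 and Car14, with ratios of 0.230 to 0.467. With haemoglobin out of the total, 5 of the 12 were at least 2-fold lower, where 4.32% of all genes were. The 80 choroid plexus, 52 pineal and 249 muscle cells of sham against 0, 0 and 3 in JVL-14 stand beside these values, and their part was not tested. Of 5 other bicarbonate transporters of the Slc4 family, none passed 2-fold (ratios of 0.644 to 0.943). Among genes that take up and break down free haemoglobin and haem, none of 8 measured passed 2-fold. Cd163, the macrophage receptor for haptoglobin-bound haemoglobin, stood at 0.62 and Hmox1, haem oxygenase, at 0.68. Both measured minor globins were higher in JVL-14, Hbq1b at 116 and 213 UMIs (3.32-fold, 2.64 to 4.20) and Hbq1a at 83 and 88 (1.92-fold, 1.40 to 2.62). The embryonic Hbb-bh1 had 7 and 8 UMIs, and Hba-x none in either library. Myoglobin (Mb), the oxygen store of muscle, had 4204 sham and 58 JVL-14 UMIs, beside the 249 and 3 skeletal muscle cells.

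In the Rhd-Hemgn cluster without the doublet step, the lists differed in direction. With haemoglobin out of the total, 19.2% of the 2840 genes measured there were at least 2-fold higher in JVL-14 and 11.5% lower. Of 17 membrane genes measured there, none was at least 2-fold higher in JVL-14 and 1, Epb41, was lower (0.35, 0.28 to 0.44). Of 9 haem synthesis genes none passed 2-fold, and the list's median log2 ratio was -0.03 against 0.11 for all genes. Late maturation genes were lower in JVL-14 at 5 of 15, among them Tmcc2 (0.27, 0.23 to 0.31), Xpo7 (0.29) and Trim58 (0.33), with a median log2 ratio of -0.91. Cell cycle genes were higher at 3 of 13, Pclaf (2.70, 1.67 to 4.64), Stmn1 (2.69) and Mcm5 (2.67). That count lay near the 19.2% of all genes, and the median log2 ratio of the list was 0.53. These values come from 29 sham and 77 JVL-14 barcodes.

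Haemoglobin was also counted in retained cells outside the erythroid clusters. Of the 4607 sham and 2368 JVL-14 retained cells outside the erythroid clusters, 18 and 8 had at least 1% haemoglobin, and they held 93.8% and 79.1% of the haemoglobin UMIs of all these cells. Of the 16 sham and 5 JVL-14 cells with 10% or more, 12 and 3 had at least 20 UMIs of the marker list of another class, and none had 20 UMIs of the erythroid list. They weighed on whole classes: blood endothelial cells stood at 45491 CPM in sham with 2 such cells among 169, and at 416 CPM without them. With them, haemoglobin over all non-erythroid retained cells was lower in JVL-14 (4199 and 1853 CPM), while without them it was higher.

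In cells under 1% haemoglobin, the level was 261 CPM in sham (255 to 267) and 389 CPM in JVL-14 (379 to 400), a ratio of 1.49 (1.44 to 1.54). It was higher in JVL-14 in all 21 classes or unnamed clusters with at least 20 cells in each library, with ratios from 1.21 to 1.93 and a median of 1.48, and 19 intervals lay above 1. Macrophages stood at 300 and 518 CPM (1.73, 1.56 to 1.91) and mature B cells at 360 and 579 CPM (1.61, 1.35 to 1.91). Fibroblasts stood at 240 and 343 CPM (1.43, 1.30 to 1.58) and blood endothelial cells at 416 and 609 CPM (1.46, 1.11 to 1.92). Neutrophil precursors were lowest in both libraries, at 174 and 267 CPM. With each cell thinned to 500 UMIs, the share of cells with a haemoglobin UMI was 8.64% to 28.6% over these classes in sham and 13.5% to 38.9% in JVL-14, with no class free of it. Free RNA gives a low level in every class of a droplet library, and its part here was not tested. The ratio of 1.49 lay beside the 1.70 of the library totals. The alpha share in these cells was 34.0% in sham and 34.6% in JVL-14, below the 37.6% and 37.9% of all barcodes.

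**Figure D5:**
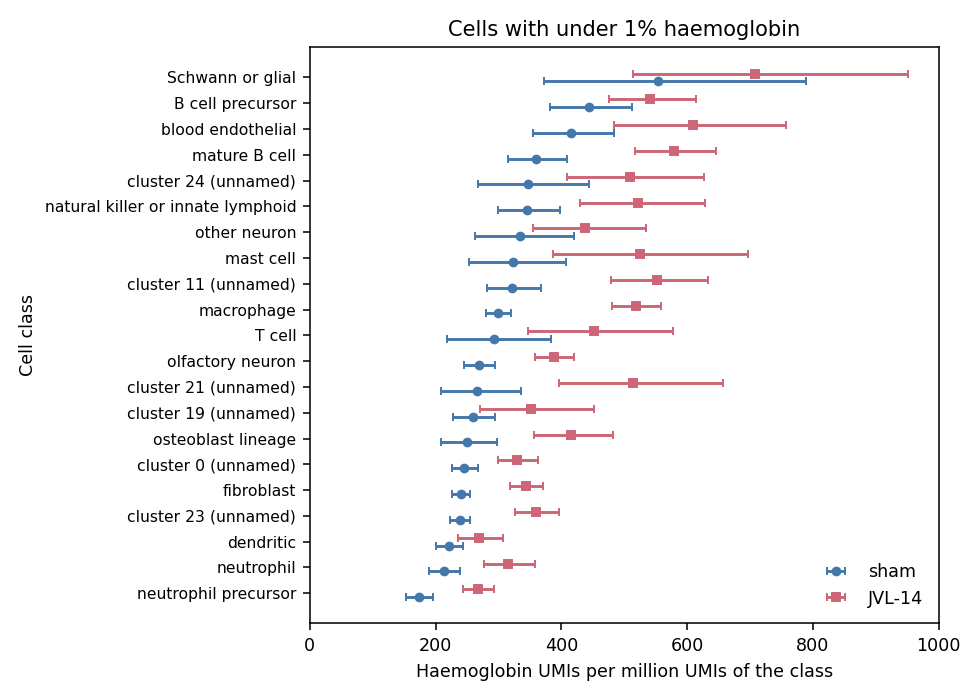
Haemoglobin in non-erythroid cells with under 1% haemoglobin, in CPM of the class, for the 21 classes or unnamed clusters with at least 20 cells in each library, with exact 95% counting intervals, in sham (circles) and JVL-14 (squares). JVL-14 lies to the right of sham in all 21, from 267 CPM in neutrophil precursors to 708 CPM in Schwann or glial cells.

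Car2 had a level of at least 100 CPM in several cell types besides the erythroid clusters. In retained cells it was highest in the Rhd-Hemgn cluster, at 3967 CPM in JVL-14 (3847 to 4090) and 2281 CPM in the 12 sham cells, and second in sham choroid plexus, the epithelium that secretes cerebrospinal fluid, at 935 CPM (855 to 1020, 65 of 80 cells with a UMI). The Bpgm cells followed at 807 CPM in JVL-14 (720 to 902) and 406 CPM in sham (361 to 454), and pineal cells at 394 CPM (348 to 446, sham). Olfactory neurons stood at 117 CPM in JVL-14 (101 to 135) and 105 CPM in sham (90.4 to 122), intervals that overlap. Neutrophil precursors stood at 198 CPM in JVL-14 (177 to 220), where 5 of 137 cells held 73.7% of the UMIs. An unnamed cluster of JVL-14 stood at 388 CPM, with 95.5% of its UMIs in 5 of 39 cells. Neighbours whose intervals overlap were choroid plexus and the JVL-14 Bpgm cells, and the sham Bpgm, pineal and unnamed-cluster cells.

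A single small set of barcodes shaped the total of Car2. In JVL-14, 4 barcodes with under 1% haemoglobin held 315 to 1070 Car2 UMIs each and 2460 of the library's 8286 (29.7%), and all 4 had been removed as doublets. They were led by Sphkap, Resp18, Cartpt and Car2, and held 22 of the library's 31 UMIs of Gucy2d, 35 of 79 of Cngb3 and 9 of 13 of Cnga3, genes of the guanylyl cyclase-D olfactory neurons that are known for carbonic anhydrase II. Gucy2d had no UMI in sham, while Cngb3 had 185 and Cnga3 had 5 there, so Cngb3 was not particular to these barcodes. Without these 4 barcodes the ratio of Car2 was 3.46 (3.32 to 3.62) in place of 4.91. In haemoglobin-dominated barcodes alone it was 2.72 (2.56 to 2.91), and in barcodes under 1% haemoglobin without the 4 it was 1.37 (1.27 to 1.48), at 55.8 and 76.5 CPM. The 4 were chosen after their values were seen.

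Car1 rested on as few. In sham, 4 barcodes with under 1% haemoglobin held 1003 of 1045 Car1 UMIs, and the top 2 held 919. They held 16 Klf1, 16 Gata1, 11 Gfi1b, 12 Tal1 and 64 Myb UMIs, transcription factors of early haematopoietic and erythroid progenitors, but no Alas2 or Slc4a1 UMI. All 4 had been removed as doublets, at 8524 to 65184 UMIs per barcode. In JVL-14, 2 such barcodes held 89 of 383 Car1 UMIs (23.2%) and 4 Klf1 UMIs, and 1 of them had been removed as a doublet. The Rhd-Hemgn cluster held 267 of the 383, in 19 of its 76 cells. Counted as barcodes with 3 or more Car1 UMIs, sham had 9 (0.164%) and JVL-14 16 (0.533%), a ratio of 3.25 (1.35 to 8.35), against 0.663 for UMIs. The direction of Car1 therefore differed between the count of UMIs and the count of barcodes.

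Alas2 and Slc4a1 had few UMIs in other cell types. In retained non-erythroid cells under 1% haemoglobin, Alas2 had 20 sham and 16 JVL-14 UMIs (0.731 and 1.16 CPM) and Slc4a1 3 and 1. Klf1 had 6 and 23, of which 17 in JVL-14 lay in neutrophil precursors. Over the 50 values of a class or cluster in a library with at least 20 cells, the genes most like haemoglobin by Pearson's r of log2(CPM + 1) were Alas2 (0.869), Hbq1a (0.799), Apol11b (0.775), Hbq1b (0.746) and Trim10 (0.738). Those most like Klf1 were Asb17os, Btnl10, Hemgn, Ermap and Rhd (0.745 to 0.808), and those most like Slc4a1 were Hbq1b, Trim10, Epb42, Apol11b and Tspo2 (0.853 to 0.895). For Car2 the highest r was 0.669, with Bpgm. These values describe a few erythroid groups against all other classes and share their libraries and depth.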

How the data were processed

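Single-cell libraries of mouse dura, 1 per group, were analysed from the deposited counts of UMIs per gene and barcode, which were not normalised. Cell Ranger 8.0.0 made the tables, per the file headers, and per the submitters' processing notes the build was mm39. The gene annotation and the treatment of multi-mapping reads are not given in the sources used here. Genes were matched by symbol, and for 26 repeated symbols the entry with more UMIs was used.

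Barcodes with under 200 genes or over 10% mitochondrial UMIs were left out of clustering only. Scrublet (scanpy 1.11.5) was run per library, and the top 5% of scores were removed as doublets, since its automatic threshold marked under 0.5%. Counts were scaled to 10000 per cell, and 2000 variable genes, 30 principal components, 15 neighbours and Leiden resolution 1 gave 35 clusters, all without the 9 genes. Clusters were named from markers of 32 classes, with a mean score of at least 0.5 (0.8 where no marker was among the 10 leading genes) and at least 3 raised markers. These limits were set after the clusters were seen, and names are rebuilt, so classes may differ from the study's. Low-scoring doublets can remain.

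Levels are summed UMIs per 1000000 (CPM). Intervals (95%) are Poisson, Clopper-Pearson or conditional binomial, all exact (scipy 1.17.1), and a count of 0 is read as up to 3 counts. Genes with at least 20 summed UMIs entered counts past 2-fold, with 0.5 added to each count. No test was made. The ratio and fold rule were run on simulated totals, drawn as independent Poisson counts. That setting does not mimic genes whose UMIs gather in few barcodes, as those of Car1 do, so it does not check their intervals. The rule for named genes took all 9 genes, per list up to 3 genes with the highest erythroid level and those past 2-fold there, the 10 leading genes of haemoglobin-dominated barcodes, and the 5 genes most like each member. Genes named by their ratio over all barcodes or by a cell's marker role outside that rule were chosen after their values were seen. The members, lists and alternatives were chosen with earlier results of these data known. Promoter sequences are RefSeq's (GRCm38.p6), and no coordinate of the files' build is used. A few genes of the lists and leading genes are counted but not reported here by name.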

Additional observations from a re-analysis of the deposited data

How the results depend on the processing

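No paired analysis was possible because each group has 1 library and no result comes from a test. The ratio of haemoglobin over all barcodes, 1.70, was 1.82 with haemoglobin out of the denominator, 1.85 in barcodes with at least 200 genes, 1.70 without the top 5 barcodes, 1.75 as a mean over barcodes and 1.74 after thinning. Car1 reversed to 9.40 without its top 5 barcodes and to 38.9 without barcodes removed as doublets. The erythroid share, 3.0 times higher, became 5.12 at 500 genes or more, where Slc4a1 reversed to 0.886. The Rhd-Hemgn share, 11.98 times higher, became 5.04 without doublet removal, an alternative chosen after seeing the data. Haemoglobin outside erythroid cells and haemoglobin-dominated barcodes (ratio 2.0) reversed to 0.327 at 500 genes or more and to 0.984 without doublet removal. It was 5.94 at 5% mitochondrial UMIs, 2.67 with the 9 genes kept in clustering, 1.60 as a mean over cells, 1.49 without the top 5 cells and 1.49 under 1% haemoglobin. Classes with Car2 at 100 CPM or more fell from 7 to 4 without its top 5 cells in each. As medians over barcodes, the alpha share was 37.8% and 38.2%, and the Hbb-bt share 17.2% and 16.1%, in sham and JVL-14. List genes at least 2-fold higher in erythroid cells fell from 67 to 37 with haemoglobin out of the total. Lower ones rose from 1 to 22, or to 4 at 1.5-fold with haemoglobin kept in. Over all genes measured there, the share at least 2-fold higher fell from 88.9% to 54.0%. The share at least 2-fold lower rose from 0.794% to 10.7%, and the list counts are read against these shares. The causes were not tested. With 1 library per group, mouse, surgery and library cannot be told apart, and depth limits Klf1 and Car1 in barcodes under 200 genes.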
